A study of Mus musculus with 120 samples.

Results

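Macrophages given 39 or 156 nM halofuginone without added proline were compared with control macrophages at the time labelled T0. The 4 halofuginone libraries, 2 for each dose, were picked by the dose, additive and time in their labels out of 120 libraries in the series, and were set against the 12 T0 control libraries. The cells were macrophages grown from bone marrow, and the mice were males of strain C57BL/6 aged 12 weeks. The marrow was wild-type, the bones travelled overnight before culture, and the cells, controls included, had been transduced with a virus that reports transcription factor activity before they were replated on day 9 in 96-well plates. How many mice gave marrow is not in the labels, and they do not say whether replicates were grown apart, so p-values here speak of library-to-library spread, which may be technical. The series holds 7 doses from 2.4 to 10000 nM, each with and without 2 mM proline, at 3 time labels without a unit (0, 1 and 4). How long T0 cells had seen the drug cannot be read from the labels, because the series design speaks of 30 minutes before lipopolysaccharide and the treatment protocol of a dose curve over 4 hours. Controls carry no proline label.

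Halofuginone occupies the proline pocket of glutamyl-prolyl-tRNA synthetase, the enzyme encoded by Eprs, so that prolyl-tRNA is no longer made and free proline competes with the drug. Uncharged tRNA activates the kinase GCN2, which slows translation initiation in general while the mRNA of the transcription factor ATF4 is translated more, and ATF4 turns on genes for amino acid supply and stress. In macrophages, NF-kB and AP-1 factors drive cytokine and immediate early genes, whose mRNAs are short-lived and rise quickly on stimulation. The question addressed is how resting macrophages respond to doses in the middle of the range.

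The assay counts transcripts by their 3′ ends, and depth was low. Totals were 39931 to 71068 counts in the 4 halofuginone libraries and 40579 to 75083 in the 12 controls (55377 ± 12771 and 56095 ± 12353, mean ± SD; exact two-sided permutation p = 0.944). Levels below are CPM, counts scaled to 1e6 per library, after TMM scaling over all 40 T0 libraries, and 1 count equals 15.3 to 29.4 CPM in the 4 halofuginone libraries. Rn45s, the ribosomal precursor RNA, took 57.5 ± 3.05% of counts with halofuginone and 47.7 ± 3.21% in controls (range 55.4 to 62.0% against 38.9 to 51.8%; exact permutation p = 0.0011, the smallest that 4 against 12 libraries can give; adjusted p = 0.00659 over 6 library measures). Thinned to an equal depth of 17000 counts without Rn45s, halofuginone libraries had 4315 ± 139 genes with a count and controls 4650.5 ± 87.4 (exact permutation p = 0.0022, adjusted p = 0.00659). Both measures moved with the treatment in the comparison with control, and they were not tested for the other comparisons below. Their part in the results that follow was not tested.

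**Figure D1:**
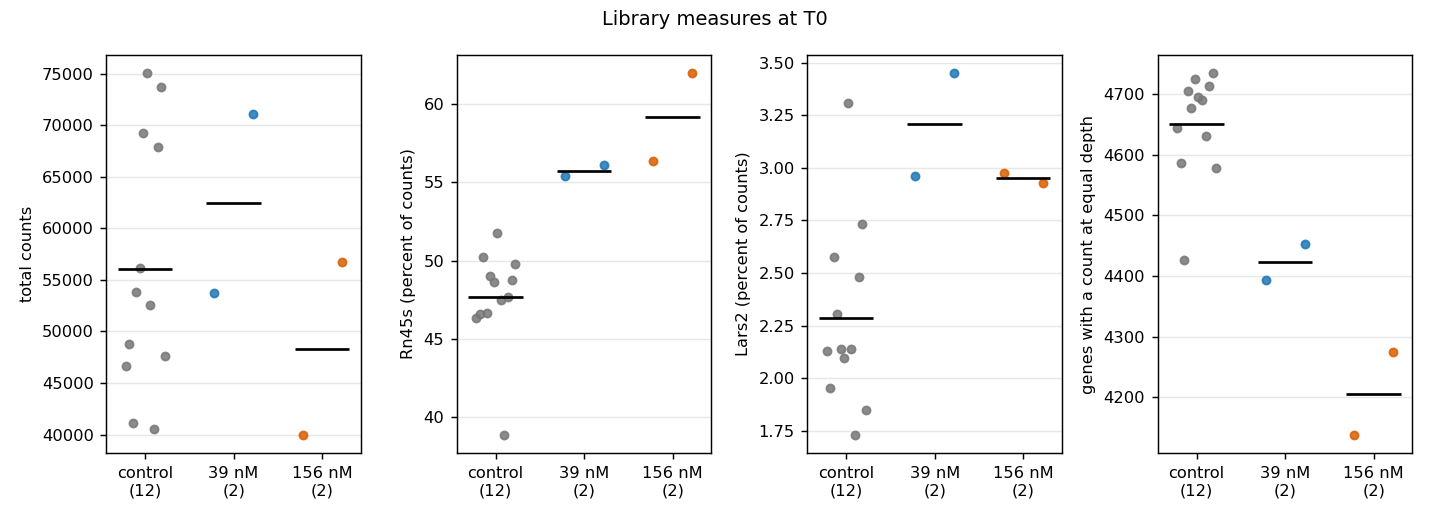
Total counts, share of Rn45s and of Lars2 in percent of counts, and number of genes with a count at an equal depth of 17000 counts without Rn45s, for 12 control, 2 libraries at 39 nM and 2 at 156 nM halofuginone at T0. Points are libraries and lines are group means; the share of Rn45s is above all controls in each of the 4 halofuginone libraries, while totals overlap.

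Cytokine, immediate early and stress genes were higher at 39 and 156 nM halofuginone than in controls, and cytoskeletal, ribosomal protein and respiratory chain genes were lower. In edgeR's quasi-likelihood test, 155 of 1130 genes tested (13.7%) were called higher and 166 (14.7%) lower at a Benjamini-Hochberg adjusted p under 0.05. The count of lower genes fell with any 1 of the 4 halofuginone libraries left out, most without the second 156 nM library. Such a fit leaves 1 library for a dose, and its filter keeps more genes. Of the 155 higher genes 94 did not reach the filter's level in 2 or more control libraries and were tested only through treated ones, which favours higher values. Of 700 genes that reached it in controls, 61 (8.71%) were higher and 151 lower. For 80 genes all 4 halofuginone libraries lay above all 12 controls, and for 70 genes below them. The median log2 fold change over all genes tested was -0.04. Unless another test is named, adjusted p-values below are two-sided and from this fit, and in bulk RNA fewer cells of a type and less RNA per cell cannot be told apart.

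**Figure D2:**
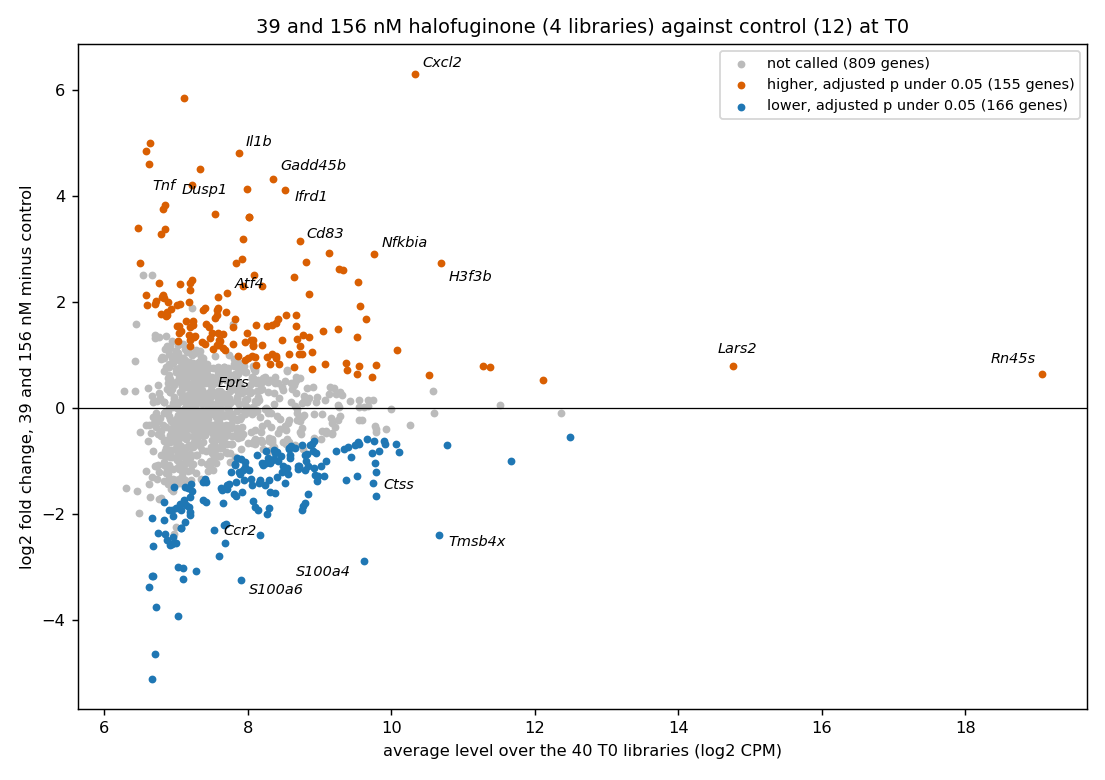
Log2 fold change of 39 and 156 nM halofuginone (4 libraries) minus control (12) at T0 against the average level of each gene in log2 CPM over 40 T0 libraries, for 1130 genes. Orange points are the 155 genes called higher and blue points the 166 called lower; Cxcl2 is the uppermost point at 6.29.

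The chemokine gene Cxcl2, whose product draws neutrophils, showed the highest fold change of all genes tested. It was at 1736 and 1748 CPM at 39 nM and 4324 and 2646 CPM at 156 nM, while the controls ran from 0 to 94.3 CPM with a median of 22.9. All 4 halofuginone libraries lay far above every control, and both 156 nM libraries were above both 39 nM libraries (log2 fold change 6.29, SE 0.26, adjusted p = 5.70e-36, n = 4 and 12). Il1b, the gene of the pyrogenic cytokine interleukin-1 beta, was at 464 and 521 CPM at 39 nM and 912 and 314 CPM at 156 nM, with controls from 0 to 65.6 CPM with a median of 14.8 (log2 fold change 4.80, SE 0.42, adjusted p = 1.71e-16). Tnf, an early cytokine of inflammation, was at 182 and 169 CPM at 39 nM and 471 and 179 CPM at 156 nM, with controls from 0 to 53.9 CPM with a median of 0 (log2 fold change 4.21, SE 0.55, adjusted p = 1.24e-09). For both genes the groups did not overlap, and the first 156 nM library was the highest. The macrophage chemokine gene Ccl4 rose less (log2 fold change 3.18, SE 0.41, adjusted p = 7.38e-10).

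Of 50 listed NF-kB and inflammatory genes, 18 passed the filter on low counts, and 14 of these were higher and 0 lower, with a median of 3.16 (log2), against 13.7% higher over all genes tested. Of the 18, 4 reached the filter's level in controls and 2 of these were higher, while the other 12 called members were tested only through treated libraries, so the count of 14 gives no support for a direction. Summed over all 50 listed genes, the level was 10706 ± 4055 CPM after halofuginone (8275 to 16736) and 1506 ± 216 CPM in controls (1260.4 to 1991), so the sums did not overlap. Other neutrophil and monocyte chemokine genes started from almost no counts: Cxcl3 had 1 count in the 12 controls and 40 in the 4 halofuginone libraries, Cxcl1 2 and 28, and Ccl2 4 and 35. The feedback inhibitors of NF-kB rose as well. Nfkbia, which encodes the inhibitor IkB-alpha, was at 868 and 1365 CPM at 39 nM and 2912 and 1659.6 CPM at 156 nM, with controls from 144 to 343 CPM with a median of 199 (log2 fold change 2.90, SE 0.21, adjusted p = 2.78e-21). Tnfaip3, encoding the ubiquitin-editing inhibitor A20, was at 283 and 291 CPM at 39 nM and 441 and 224 CPM at 156 nM, with controls from 0 to 65.6 CPM with a median of 16.9 (log2 fold change 3.65, SE 0.46, adjusted p = 3.35e-10). The groups did not overlap for either gene. The activation marker Cd83 (3.14, SE 0.28), the lectin receptor Clec4e (2.40), the adhesion molecule Icam1 (1.93) and Tnfaip2 (1.75) were also called higher, while Nfkb1 (1.03, adjusted p = 0.116), Tnip1 (0.94, adjusted p = 0.162), Birc3 (0.19, adjusted p = 0.773) and the lipopolysaccharide co-receptor Cd14 (-0.10, adjusted p = 0.868) were not called.

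Not every inflammatory gene was seen. Il6 had 0 counts in both groups, so its level was not detectable at this depth. Cxcl10, a chemokine gene induced by interferon, had 8 counts in the 4 halofuginone libraries and 9 in the 12 controls and was not tested. Of 40 interferon-stimulated genes 3 were tested, and edgeR called 0, with 0 at an unadjusted p under 0.05: Rsad2 had a log2 fold change of -1.09, adjusted p = 0.214, Slfn5 of -0.46, adjusted p = 0.302 and Trim30a of -0.22, adjusted p = 0.814. With 13.7% higher and 14.7% lower among all genes tested, 0 of 3 does not set this list apart. The 40 genes came to 1130.5 ± 202 CPM after halofuginone, against 1457 ± 315 CPM in controls, with overlapping ranges.

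The promoters of Cxcl2 and Nfkbia are shown because these inflammatory genes rose together from very different starting levels. Each line gives the 250 bases before the RefSeq transcript start (GRCm38.p6, read along the gene), with matches to the NF-kB motif (GGGA, then 4 bases of any kind, then CC) on either strand in capitals.
Cxcl2: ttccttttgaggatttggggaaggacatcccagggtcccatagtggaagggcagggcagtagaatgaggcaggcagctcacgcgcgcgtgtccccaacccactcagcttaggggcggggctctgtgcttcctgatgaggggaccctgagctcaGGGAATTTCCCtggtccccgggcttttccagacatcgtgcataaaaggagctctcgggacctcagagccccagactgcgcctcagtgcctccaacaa
Nfkbia: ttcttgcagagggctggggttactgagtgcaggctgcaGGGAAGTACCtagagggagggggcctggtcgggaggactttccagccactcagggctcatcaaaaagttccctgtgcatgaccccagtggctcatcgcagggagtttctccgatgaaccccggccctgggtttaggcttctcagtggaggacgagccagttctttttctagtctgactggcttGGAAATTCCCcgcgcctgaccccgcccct
The Cxcl2 window is chr5:90903649-90903898 on the plus strand, and its capitals hold 2 overlapping matches, 1 on each strand, within bases 97 to 87 before the start. The Nfkbia window is chr12:55492648-55492897 on the minus strand, with 1 match at 212 to 203 and another, on the opposite strand, at 29 to 20 bases before the start. In windows of 300 bases, 250 before to 50 after the start, 20.7% of 32851 RefSeq promoters held the motif. Among named genes called higher, 14 of 31 with a promoter in the table held it, and among those called lower 9 of 34. A gene was counted if any of its promoters matched, whereas the share is of single promoters. Some named genes were taken from the list of NF-kB and inflammatory genes, so these numbers cannot be set against the share. A match is a description of letters and does not show that a factor binds there.

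**Figure D3:**
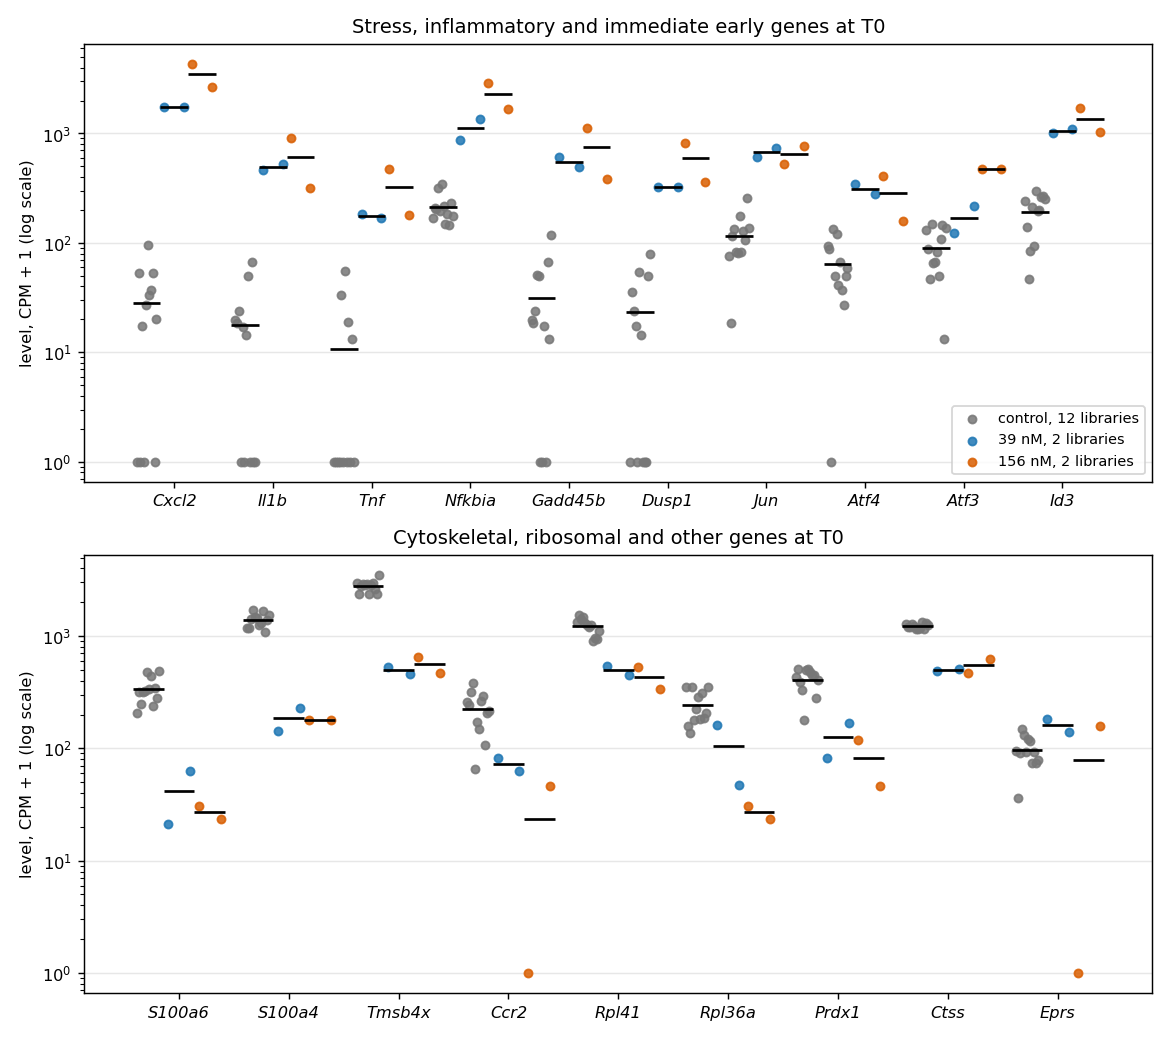
Level of 19 genes in each control (12), 39 nM (2) and 156 nM (2) library at T0, as CPM + 1 on a log axis, so that points at the bottom stand for 0 counts. Lines are group means; in the upper panel the groups of all genes but Atf3 are apart, and in the lower panel the groups of Ccr2, Rpl36a and Eprs overlap.

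Immediate early genes, which respond to signalling within minutes and need no new protein, were the next group. Of 25 listed, 14 passed the filter, of which 10 were higher and 0 lower, with a median of 2.32, against 13.7% higher over all genes tested. Of the 10, 8 were tested only through treated libraries, and both members that reached the filter's level in controls were higher, so the count gives no support for a direction. All 25 came to 5630 ± 2172 CPM (4036 to 8736) after halofuginone, against 952 ± 149 CPM (613 to 1151) in controls. Dusp1, encoding a phosphatase that switches off MAP kinases, was at 323 and 322 CPM at 39 nM and 824 and 359 CPM at 156 nM, with controls from 0 to 77.4 CPM with a median of 15 (log2 fold change 4.13, SE 0.42, adjusted p = 1.34e-13). The AP-1 subunit gene Jun was at 605 and 736 CPM at 39 nM and 529 and 763 CPM at 156 nM, with controls from 17.4 to 256 CPM with a median of 109 (log2 fold change 2.47, SE 0.27, adjusted p = 3.63e-12), and doses did not separate. Junb was at 666 and 751 CPM at 39 nM and 1588 and 1256 CPM at 156 nM, with controls from 68.1 to 281 CPM with a median of 139 (log2 fold change 2.59, SE 0.23, adjusted p = 1.27e-16). Each of these groups was apart from the controls. Fos was at 182 and 92 CPM at 39 nM and 647 and 247 CPM at 156 nM, and here both 39 nM libraries lay among the controls, which ran from 0 to 186 CPM with a median of 53.2 (log2 fold change 1.89, SE 0.42, adjusted p = 2.69e-04). The zinc finger factor genes Klf6 (2.36, SE 0.21), Klf4 (2.34, SE 0.55), the early response gene Ier3 (4.49, SE 0.56) and the mRNA decay factor gene Zfp36 (2.30, SE 0.35) were also called. Btg2 (1.57, adjusted p = 0.051) was not, nor were Egr1, Ier2 and Nr4a1, which had 9, 14 and 4 counts in the 4 halofuginone libraries and 7, 4 and 5 in the 12 controls.

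Among stress kinase and growth arrest genes, 8 of 11 tested (22 listed) were higher and 0 lower, with a median of 2.00, against 13.7% higher over all genes tested. Of the 8, 6 were tested only through treated libraries, and of 3 members that reached the filter's level in controls 2 were higher, so this count too gives no support for a direction. Gadd45b, which encodes an activator of stress kinases, was at 605 and 491 CPM at 39 nM and 1118 and 381 CPM at 156 nM, with controls from 0 to 116 CPM with a median of 18 (log2 fold change 4.32, SE 0.38, adjusted p = 3.78e-16). Ifrd1, an interferon-related developmental regulator, was at 343 and 399 CPM at 39 nM and 912 and 650.4 CPM at 156 nM, with controls from 0 to 61 CPM with a median of 27.4 (log2 fold change 4.11, SE 0.34, adjusted p = 8.03e-18). No halofuginone library came down to the controls for either gene. Kdm6b, a demethylase of histone H3 lysine 27 (3.60, SE 0.45), the kinase gene Pim1 (3.59, SE 0.38), the p53 regulator Mdm2 (1.74, SE 0.30) and Txnip, the inhibitor of thioredoxin (1.44, SE 0.25), were called higher. Cdkn1a (0.22, adjusted p = 0.75), the cell cycle inhibitor induced by p53, and Mcl1 (0.47, adjusted p = 0.162), a survival factor, were not called. All 22 genes came to 4634 ± 1461 CPM after halofuginone, against 1245 ± 182 CPM in controls.

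Some genes of the amino acid response were called higher too. Of 38 listed ATF4 targets and amino acid response genes, 9 were tested, 7 were higher and 0 lower, with a median of 1.67. Over all genes tested 13.7% were higher. Of the 7 higher members, 6 were tested only through treated libraries, so this count gives no support for a direction. The 1 member that reached the filter's level in controls was higher. Atf4 was at 343 and 276 CPM at 39 nM and 412 and 157 CPM at 156 nM, with controls from 0 to 132 CPM with a median of 53.4 (log2 fold change 2.15, SE 0.39, adjusted p = 6.92e-06). The lowest halofuginone library was just above the highest control. Cebpb, a bZIP factor gene of inflammation and stress, was at 505 and 322 CPM at 39 nM and 706 and 247 CPM at 156 nM, with controls from 0 to 212 CPM with a median of 53.2 (log2 fold change 2.72, SE 0.36, adjusted p = 2.24e-09). Slc38a2, a carrier of small neutral amino acids that takes up proline among others, was called higher (log2 fold change 2.22, SE 0.48, adjusted p = 1.80e-04), as were Ppp1r15a (1.45, SE 0.51), which directs the dephosphorylation of eIF2, and the autophagy receptor gene Sqstm1 (1.49, SE 0.24). Ddit3, encoding the stress factor CHOP, was at 0 and 184 CPM at 39 nM and 88.2 and 112 CPM at 156 nM, with 0 counts in the first 39 nM library, and controls from 0 to 99.3 CPM with a median of 17.8 (log2 fold change 1.96, SE 0.60, adjusted p = 0.00883). Without the second 39 nM or the second 156 nM library it was not called, and in the former case the 39 nM dose is left with 0 counts, so that no fold change is given. Slc3a2, the heavy chain of amino acid exchangers (0.64, adjusted p = 0.269), and Cebpg (0.55, adjusted p = 0.465) were not called.

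Several textbook ATF4 targets could not be tested. Asns, the asparagine synthetase gene, had 4 counts in the 4 halofuginone libraries and 14 in the 12 controls, Trib3 6 and 4, Chac1 0 and 0, and the cystine carrier gene Slc7a11 1 and 0. Summed over all 38 listed genes, the level was 2853 ± 474 CPM (2422 to 3530) with halofuginone and 929.6 ± 114 CPM (679.7 to 1155) in controls, without overlap. Eprs, which encodes the target of the drug, was at 182 and 138 CPM at 39 nM and 0 and 157 CPM at 156 nM, with controls from 34.9 to 149 CPM with a median of 92.1. The first 156 nM library had no Eprs count, the other 3 lay among or above the controls, and the gene was not called (log2 fold change 0.29, SE 0.47, adjusted p = 0.69). Of 4 cytosolic tRNA synthetase genes tested (20 listed) edgeR called 0, with 0 at an unadjusted p under 0.05 and a median of -0.20, and over all 20 genes the ranges overlapped (324 to 1150.4 against 540.5 to 865.5 CPM). Beside 13.7% higher and 14.7% lower among all genes tested, 0 of 4 does not set this list apart. No gene of proline metabolism passed the filter, and the 14 listed genes together had 27 counts with halofuginone and 133 in controls.

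Atf3, a stress factor gene driven by ATF4 and by MAP kinase signals, was higher at 156 than at 39 nM in each library. It was at 121 and 215 CPM at 39 nM and 471 and 471 CPM at 156 nM, with controls from 12.2 to 149 CPM with a median of 84 (log2 fold change 1.67, SE 0.34, adjusted p = 7.16e-05). At 39 nM 1 of the 2 libraries lay among the controls, and at 156 nM both were above all controls. Its promoter is shown beside that of Dusp1 because the windows hold other motifs than NF-kB alone. Capitals mark matches to the cAMP response element TGACGTCA and NF-kB for Dusp1, and to the C/EBP-ATF element TGATGNAA and NF-kB for Atf3 (GRCm38.p6, 250 bases before the RefSeq start, read along the gene).
Dusp1: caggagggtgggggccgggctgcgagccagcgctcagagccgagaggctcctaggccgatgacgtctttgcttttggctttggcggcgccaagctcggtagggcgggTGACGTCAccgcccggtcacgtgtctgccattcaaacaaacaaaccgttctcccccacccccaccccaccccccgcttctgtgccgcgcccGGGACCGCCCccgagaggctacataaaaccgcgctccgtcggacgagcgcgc
Atf3: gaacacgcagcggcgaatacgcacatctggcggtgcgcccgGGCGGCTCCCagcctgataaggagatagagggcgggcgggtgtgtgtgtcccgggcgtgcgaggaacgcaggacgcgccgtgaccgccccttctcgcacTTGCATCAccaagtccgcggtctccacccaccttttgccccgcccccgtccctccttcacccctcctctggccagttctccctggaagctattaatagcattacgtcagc
The Dusp1 window is chr17:26508473-26508722 on the minus strand and holds the cAMP response element at 143 to 136 and an NF-kB match at 52 to 43 bases before the start. The Atf3 window is chr1:191183334-191183583 on the minus strand and holds the C/EBP-ATF element at 110 to 103 and an NF-kB match at 209 to 200 bases before the start, both on the opposite strand. The cAMP response element was present in 1.79% of all promoters and the C/EBP-ATF element in 3.97%. Among named genes called higher with a promoter in the table, 2 of 31 held each of them, and among those called lower 3 and 1 of 34. Genes were again counted if any of their promoters matched, while the percentages are of single promoters. The AP-1 motif TGANTCA was present in 3 of 31, 3 of 34 and 7.81% of all promoters. The CArG box was present in 0 of 31, 1 of 34 and 535 of 32851 promoters.

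Of 9 tested TGF-beta response and matrix genes (26 listed), 4 were higher and 0 lower, against 13.7% higher over all genes tested. The median of the 9 was 1.01. Of 6 members that reached the filter's level in controls 3 were higher. The differentiation inhibitor Id2 was at 1089.8 and 1089 CPM at 39 nM and 1029 and 1121 CPM at 156 nM, with controls from 159 to 421 CPM with a median of 267 (log2 fold change 1.92, SE 0.20, adjusted p = 4.65e-13). Its relative Id3 was at 1009 and 1104 CPM at 39 nM and 1706 and 1032 CPM at 156 nM, with controls from 45.4 to 296 CPM with a median of 205 (log2 fold change 2.61, SE 0.23, adjusted p = 3.39e-16). The Id2 levels were nearly alike in the 4 halofuginone libraries, and neither gene overlapped with controls. The macrophage elastase gene Mmp12 (1.87, SE 0.40) and Skil, a brake on SMAD signalling (1.02, SE 0.29), were called higher too, the latter not without the second 39 nM library.

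Genes of the actin cytoskeleton, which serves shape and movement, were mostly lower. Of 20 tested (23 listed), 14 were lower and 1 higher, with a median of -1.47, against 14.7% lower over all genes tested. S100a4, a calcium-binding protein gene of motile myeloid cells, was at 141 and 230.0 CPM at 39 nM and 176 and 179 CPM at 156 nM, with controls from 1089.7 to 1705 CPM with a median of 1404 (log2 fold change -2.90, SE 0.29, adjusted p = 5.59e-14). S100a6, which lies beside it on chromosome 3, was at 20.2 and 61.3 CPM at 39 nM and 29.4 and 22.4 CPM at 156 nM, with controls from 204 to 484 CPM with a median of 319 (log2 fold change -3.24, SE 0.48, adjusted p = 5.75e-08). Tmsb4x, encoding the actin-monomer-binding peptide thymosin beta 4, was at 525 and 460.0 CPM at 39 nM and 647 and 471 CPM at 156 nM, with controls from 2354 to 3485 CPM with a median of 2854 (log2 fold change -2.41, SE 0.20, adjusted p = 4.07e-18). For these 3 genes every halofuginone library was below every control and the doses did not separate. The myosin light chain gene Myl6 (-2.79, SE 0.53), the Arp2/3 subunit gene Arpc1b (-1.79, SE 0.32), the profilin gene Pfn1 (-1.21, SE 0.40) and the actin gene Actb (-0.55, SE 0.15) were lower. Vim, which encodes the intermediate filament protein vimentin, went the other way (908 and 1043 CPM at 39 nM and 1500.1 and 1099 CPM at 156 nM; controls from 307 to 596 CPM with a median of 432; log2 fold change 1.33, SE 0.20, adjusted p = 1.44e-07). Actg1 (0.03, adjusted p = 0.928) and the bundling protein gene Lcp1 (0.15, adjusted p = 0.623) were not called. The 23 genes together reached 10060 ± 736 CPM after halofuginone, against 17689 ± 1494 CPM in controls, without overlap.

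Ribosomal protein genes were lower as a group. Of 79 tested (81 listed), 56 were lower and 0 higher, against 14.7% lower over all genes tested. The median of the 79 was -0.96. Without the second 156 nM library 31 of 79 were lower, with a median of -0.89. Rpl41 was at 545 and 445 CPM at 39 nM and 529 and 336 CPM at 156 nM, with controls from 906 to 1552 CPM with a median of 1256 (log2 fold change -1.41, SE 0.22, adjusted p = 1.41e-07). Rpl37a was at 121 and 107 CPM at 39 nM and 265 and 269 CPM at 156 nM, with controls from 448 to 908 CPM with a median of 665 (log2 fold change -1.86, SE 0.29, adjusted p = 2.60e-07). Both genes lay below every control at both doses. The 2 most negative fold changes of the list were those of Rpl36 (-2.22, SE 0.48) and Rpl36a (-2.20, SE 0.52). The other end of the list held Rpl4 (0.26, adjusted p = 0.407), Rps27a (0.00, adjusted p = 0.987), Rpl3 (-0.17, adjusted p = 0.715) and Rpl5 (-0.23, adjusted p = 0.503), which were not called. Summed over the 81 genes, the level was 21229 ± 3556 CPM (16260 to 24707) with halofuginone and 38465 ± 3651 CPM (31293 to 42904) in controls. Reads of ribosomal protein genes can be shared with their many pseudogenes, which makes single members uncertain.

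Translation factor genes whose mRNAs carry the same 5′ terminal oligopyrimidine start as ribosomal protein mRNAs did not show the same counts. Of 13 tested (20 listed), 2 were lower and 1 higher, with a median of -0.23. Over all genes tested 14.7% were lower and 13.7% higher, so these counts do not set the list apart from all genes. Eef1a1 (-0.10, adjusted p = 0.696), Eef2 (-0.12, adjusted p = 0.753) and Pabpc1 (-0.02, adjusted p = 0.935) were not called, and Gnb2l1, the ribosomal scaffold RACK1 (log2 fold change -1.31, SE 0.33, adjusted p = 0.00117), and Eif3h (-1.79, adjusted p = 0.0298) were called lower. Tpt1, the translationally controlled tumour protein gene, was at 8073 and 4968 CPM at 39 nM and 4000.2 and 4979 CPM at 156 nM, with controls from 2784 to 5436 CPM with a median of 3637 (log2 fold change 0.53, SE 0.16, adjusted p = 0.00815). Its groups overlapped, and it was not called without the first 39 nM or the second 156 nM library. Eif3h lost its call without any 1 of the 4 halofuginone libraries. The difference between this list and ribosomal protein genes was not tested.

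**Figure D4:**
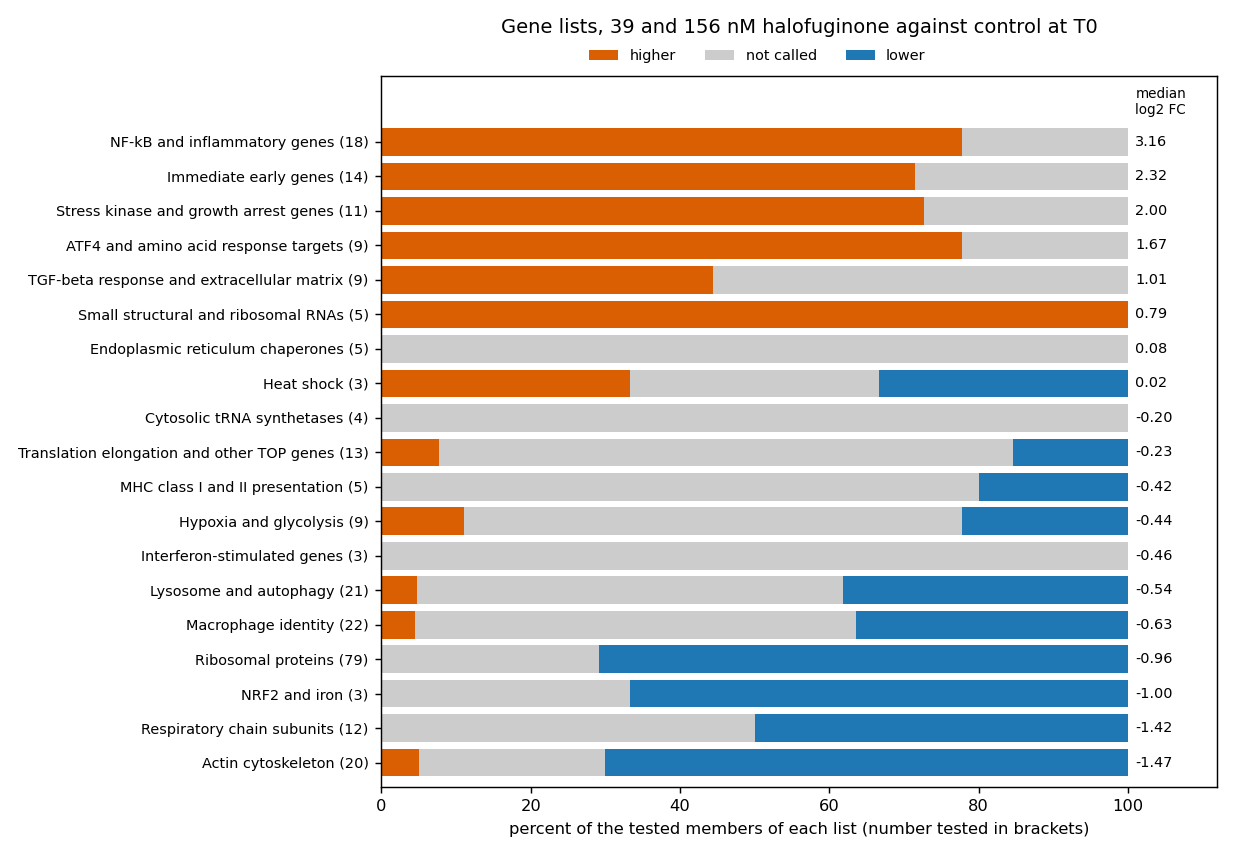
Percent of the tested members of each gene list called higher (orange), not called (grey) or called lower (blue) at 39 and 156 nM halofuginone against control at T0, for lists with 3 or more members tested, whose number stands in brackets. The median log2 fold change stands on the right, from 3.16 for NF-kB and inflammatory genes to -1.47 for the actin cytoskeleton.

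Of 12 respiratory chain subunit genes tested (33 listed), 6 were lower and 0 higher, against 14.7% lower over all genes tested. The median of the 12 was -1.42. The 6 include the cytochrome oxidase genes Cox6c (-2.49, SE 0.74), Cox6b1 (-2.27, SE 0.60) and Cox7c (-1.98, SE 0.65) and the ATP synthase gene Atp5h (-1.82, SE 0.61). These are low genes: Cox6c had 5 counts in the 4 halofuginone libraries, Atp5h 6, Cox6b1 7 and Cox7c 9. Cox6c was not called without the second 156 nM library, and Cox7c and Atp5h not without that or the second 39 nM library. The second 156 nM library had 0 counts of Cox6c and of Cox7c, so the fitted fold changes of both depend on few counts. All 33 genes came to 1388 ± 339 CPM after halofuginone, against 3050.5 ± 345 CPM in controls, without overlap. Of the NRF2 and iron list, the peroxiredoxin gene Prdx1 (log2 fold change -2.01, SE 0.36, adjusted p = 6.57e-06) and the ferritin light chain gene Ftl1 (2422 and 2285 CPM at 39 nM and 2324 and 1861 CPM at 156 nM; controls from 3267 to 6059 CPM with a median of 4265; adjusted p = 6.35e-07) were lower, while the ferritin heavy chain gene Fth1 was not called (-0.11, adjusted p = 0.611). Of 9 glycolysis and hypoxia genes 2 were lower and 1 higher, against 14.7% lower and 13.7% higher over all genes tested. Vegfa, the vascular growth factor gene, was higher (323 and 337 CPM at 39 nM and 382 and 381 CPM at 156 nM; controls from 22.7 to 275 CPM with a median of 109.6; adjusted p = 0.00112), and Pgk1 (-1.51, adjusted p = 0.0256) and Hk2 lower. Hk2 had 0 counts in both 39 nM libraries and 88.2 and 89.7 CPM in those at 156 nM, against controls from 0 to 295 CPM with a median of 66.7, so that at 156 nM it lay within the control range. Hk2 also lost its call without any 1 of 5 controls, and neither Pgk1 nor Hk2 kept its call without any 1 of the 4 libraries.

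Chaperone genes did not move together. Of 5 endoplasmic reticulum chaperone genes tested, edgeR called 0, with 1 at an unadjusted p under 0.05. Among all genes tested 442 of 1130 were at an unadjusted p under 0.05, and 13.7% were called higher and 14.7% lower. Hspa5, which encodes the chaperone BiP, had a log2 fold change of 0.55, SE 0.31 and the calcium-binding chaperone gene Calr of -0.46, SE 0.34. Of 3 cytosolic heat shock genes, Hsp90aa1 was higher (949 and 675 CPM at 39 nM and 1059 and 718 CPM at 156 nM; controls from 308 to 579 CPM with a median of 487; log2 fold change 0.84, SE 0.22, adjusted p = 0.00158), Hsp90ab1 lower (-0.64, adjusted p = 0.0248) and Hspa8 not called (0.02, adjusted p = 0.947). The call of Hsp90ab1 was lost without the first 156 nM or the second 39 nM library. With 5 and 3 genes tested, the counts do not set these chaperone lists apart from all genes. Of 21 lysosome and autophagy genes tested (28 listed) 8 were lower and 1 higher, with a median of -0.54. Over all genes tested 14.7% were lower and 13.7% higher. The cathepsin genes Ctsl (363 and 353 CPM at 39 nM and 294 and 426 CPM at 156 nM; controls from 472 to 1159 CPM with a median of 855; log2 fold change -1.29, SE 0.24, adjusted p = 8.78e-06) and Ctsb (-0.71, SE 0.16) and the lysosomal membrane protein gene Laptm5 (-1.90, SE 0.35) were lower, and Sqstm1 was the 1 higher member. Of 5 tested antigen presentation genes (15 listed) B2m, the light chain of MHC class I, was the 1 lower and none was higher (log2 fold change -0.83, SE 0.20, adjusted p = 0.001). Beside 14.7% lower among all genes tested, 1 of 5 does not set this list apart. Cell cycle genes had 2 tested and 0 called by edgeR (0 at an unadjusted p under 0.05), and cholesterol synthesis genes had 0 tested, with 43 counts in the 4 halofuginone libraries and 138 in controls. Leaving out any 1 of the 4 halofuginone libraries left 4 or 5 lysosomal genes lower.

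The labelled cell type was checked against its markers. Csf1r, the receptor of the macrophage growth factor, had 149 counts with halofuginone and 728 in controls (-0.40, adjusted p = 0.125), Emr1, the F4/80 antigen, 29 and 117 (-0.02, adjusted p = 0.976), and Cd68 46 and 102 (0.74, adjusted p = 0.133), none of which was called. Lyz2 (0 and 5 counts), Mertk (0 and 2) and Marco (0 and 0) were nearly absent in both groups. Of 22 tested macrophage identity genes (34 listed, 32 in the table), 8 were lower and 1 higher, with a median of -0.63. Over all genes tested 14.7% were lower and 13.7% higher. Without the second 156 nM library the median of the list was -0.27. The protease gene Ctss was at 484 and 506 CPM at 39 nM and 471 and 628 CPM at 156 nM, with controls from 1142 to 1322 CPM with a median of 1216, clear of each other (log2 fold change -1.22, SE 0.21, adjusted p = 2.31e-06). The monocyte chemokine receptor genes Ccr2 (80.7 and 61.3 CPM at 39 nM and 0 and 44.9 CPM at 156 nM; controls from 64.7 to 381 CPM with a median of 229; log2 fold change -2.31, SE 0.56, adjusted p = 8.36e-04) and Cx3cr1 (4 counts in the 4 halofuginone libraries against 129 in the 12 controls) and the factor gene Maf (-1.76, SE 0.38) were lower. Maf had 17 counts in the second 156 nM library, within the controls at 381 CPM, and 2, 5 and 1 counts in the other 3. Of the 10 Ccr2 counts 8 were at 39 nM, and of the 4 Cx3cr1 counts 3 were in the first 156 nM library, so leaving out 1 library can leave a dose with 0 counts, and no fold change is given for that. Lrp1, an endocytic receptor gene, was higher (0.57, adjusted p = 0.0273).

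Markers of other cells moved with some of these genes. Of 10 neutrophil markers in the table, S100a8 had 1 count with halofuginone and 96 in controls, S100a9 6 and 115, and Ngp 1 and 29. Other members did not go that way, since Csf3r had 11 and 26 counts, Cxcr2 9 and 16, Ltf 3 and 3 and Camp 1 and 4 in 4 and 12 libraries, while Elane and Retnlg were at 0 in both groups and Mpo at 0 and 1. The list came to 112 to 206 CPM after halofuginone, against 276 to 489 CPM in controls. S100a8 and S100a9 are also made by monocytes. Markers of B cells had 1 and 1 counts, T and NK cells 0 and 2, dendritic cells 0 and 14, erythroid, mast and platelet cells 3 and 18, and fibroblasts 0 and 1. Their part in the decreases of S100a4, S100a6, Ccr2 and Cx3cr1 was not tested.

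Taken singly, the doses gave fewer calls. At 39 nM, 100 genes (8.85%) were higher than in controls and 74 (6.55%) lower, and at 156 nM 124 (11%) were higher and 87 (7.7%) lower, in comparisons that share the same 12 controls. Each rests on 2 libraries: with 1 of them left out, the counts at 39 nM went down to 55 higher (without the first) and 13 lower (without the second), and at 156 nM to 66 higher (without the first) and 20 lower (without the second). Cxcl2 was at 5.79 at 39 nM and 6.79 at 156 nM, Gadd45b at 4.11 and 4.53, Atf4 at 2.23 and 2.07, S100a4 at -2.85 and -2.94, and Rpl41 at -1.31 and -1.52, as log2 fold changes against control. Immediate early genes were higher in 8 of 14 tested at 39 nM and 12 of 14 at 156 nM. ATF4 targets were higher in 4 and 5 of 9, and ribosomal protein genes lower in 22 and 31 of 79. In controls 2 of the 14 and 1 of the 9 reached the filter's level. The others were tested only through treated libraries, so the counts of these 2 lists give no support for a direction or a rise with dose.

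The direct test of 156 against 39 nM called 0 genes higher (0%) and 0 lower (0%) in edgeR and in DESeq2, with 73 genes at an unadjusted p under 0.05 in edgeR, so that a difference between these doses was not detectable with 2 libraries a side. The smallest adjusted p was 0.0919, shared by Btg2, Basp1 and Ptp4a2. Btg2, an antiproliferative immediate early gene, was at 20.2 and 46 CPM at 39 nM and 412 and 336 CPM at 156 nM (log2 difference 3.34, SE 0.83). The membrane-associated protein gene Basp1 was at 222 and 429 CPM at 39 nM and 1147 and 919.5 CPM at 156 nM. Ptp4a2, a phosphatase gene, was at 525 and 521 CPM at 39 nM and 147 and 112 CPM at 156 nM (-2.01, SE 0.52). For each of the 3 genes the 2 libraries of one dose lay apart from those of the other. Phlda1 was at 0 and 15.3 CPM at 39 nM and 294 and 179 CPM at 156 nM (adjusted p = 0.294), and H3f3b, a gene of the histone variant H3.3, at 2139 and 1825 CPM at 39 nM and 5441 and 2646 CPM at 156 nM (adjusted p = 0.242).

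Lower and higher doses placed these levels on the dose curve. These contrasts use the same 4 libraries as the comparison with control, so their values are given beside it and not as separate support. Against 2.4 and 9.7 nM (4 libraries), 81 genes (7.17%) were higher at 39 and 156 nM and 72 (6.37%) lower. Cxcl2 was at 46 and 37.8 CPM at 2.4 nM and 645 and 824 CPM at 9.7 nM, so that both libraries at 9.7 nM were above all controls (log2 fold change 3.77, SE 0.32, adjusted p = 1.74e-16). Jun stayed within the control range there, with 107 and 75.5 and then 187 and 125 CPM (log2 fold change 2.46, SE 0.37, adjusted p = 4.50e-07). Nfkbia (2.40, SE 0.27), Ccnl1, a cyclin gene of RNA splicing (2.48, SE 0.37), and Cd83 (2.35, SE 0.35) were also higher than at the low doses, and Tmsb4x (-1.44, SE 0.22), Rpl18 (-1.75, SE 0.39), Rpl39 (-1.36, SE 0.31) and Ms4a7 (-1.95, SE 0.46) lower. Sqstm1 was already at 1061 and 1739 CPM at 9.7 nM and was not called (0.11, adjusted p = 0.844), nor was Atf4, at 229 and 179 CPM there (log2 fold change 0.94, SE 0.45; not called). S100a4 was at 998 and 629 CPM at 2.4 nM and 208 and 108 CPM at 9.7 nM, which overlaps with its middle-dose levels (-0.94, adjusted p = 0.0877).

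At 625, 2500 and 10000 nM (6 libraries), 10 genes (0.885%) were higher than at 39 and 156 nM and 2 (0.177%) lower. Leaving out 1 library gave 5 to 12 and 0 to 7. Btg2 was at 995 and 395 CPM at 625 nM, 918 and 527 at 2500 nM and 1211 and 591 at 10000 nM (log2 fold change 2.69, SE 0.47, adjusted p = 1.99e-04). The zinc finger gene Egr1, at 0 and 30.7 CPM at 39 nM and 206 and 0 CPM at 156 nM, reached 821 and 799.8 CPM at 10000 nM (log2 fold change 3.51, SE 0.67, adjusted p = 5.23e-04). Atf3 reached 1368 and 939 CPM at that dose (log2 fold change 1.64, SE 0.32, adjusted p = 6.76e-04). These tests set the high doses against both middle doses pooled, and against 156 nM alone the levels overlapped for Btg2 (412 and 336 CPM) and for Egr1, which was at 497 and 123 CPM at 625 nM. Ccl4 (1.61, SE 0.34), Kdm6b (1.53, SE 0.37) and the small RNA genes Rn4.5s (2.00, SE 0.37) and Rnu6 (1.22, SE 0.27) were higher too. Cxcl2 (0.31, adjusted p = 0.606), Nfkbia (0.25, adjusted p = 0.7), Gadd45b (0.28, adjusted p = 0.793), Atf4 (0.00, adjusted p = 1), S100a6 (0.08, adjusted p = 0.989) and Rpl41 (-0.70, adjusted p = 0.232) were not called between these dose ranges. Of the 2 lower genes, Raph1 was at 383 and 107 CPM at 39 nM and 265 and 67.3 CPM at 156 nM and had 0 counts in 4 of the 6 high-dose libraries, and Dhrs3 was at 46.0 to 121 CPM and had 0 counts in 5 of the 6.

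**Figure D5:**
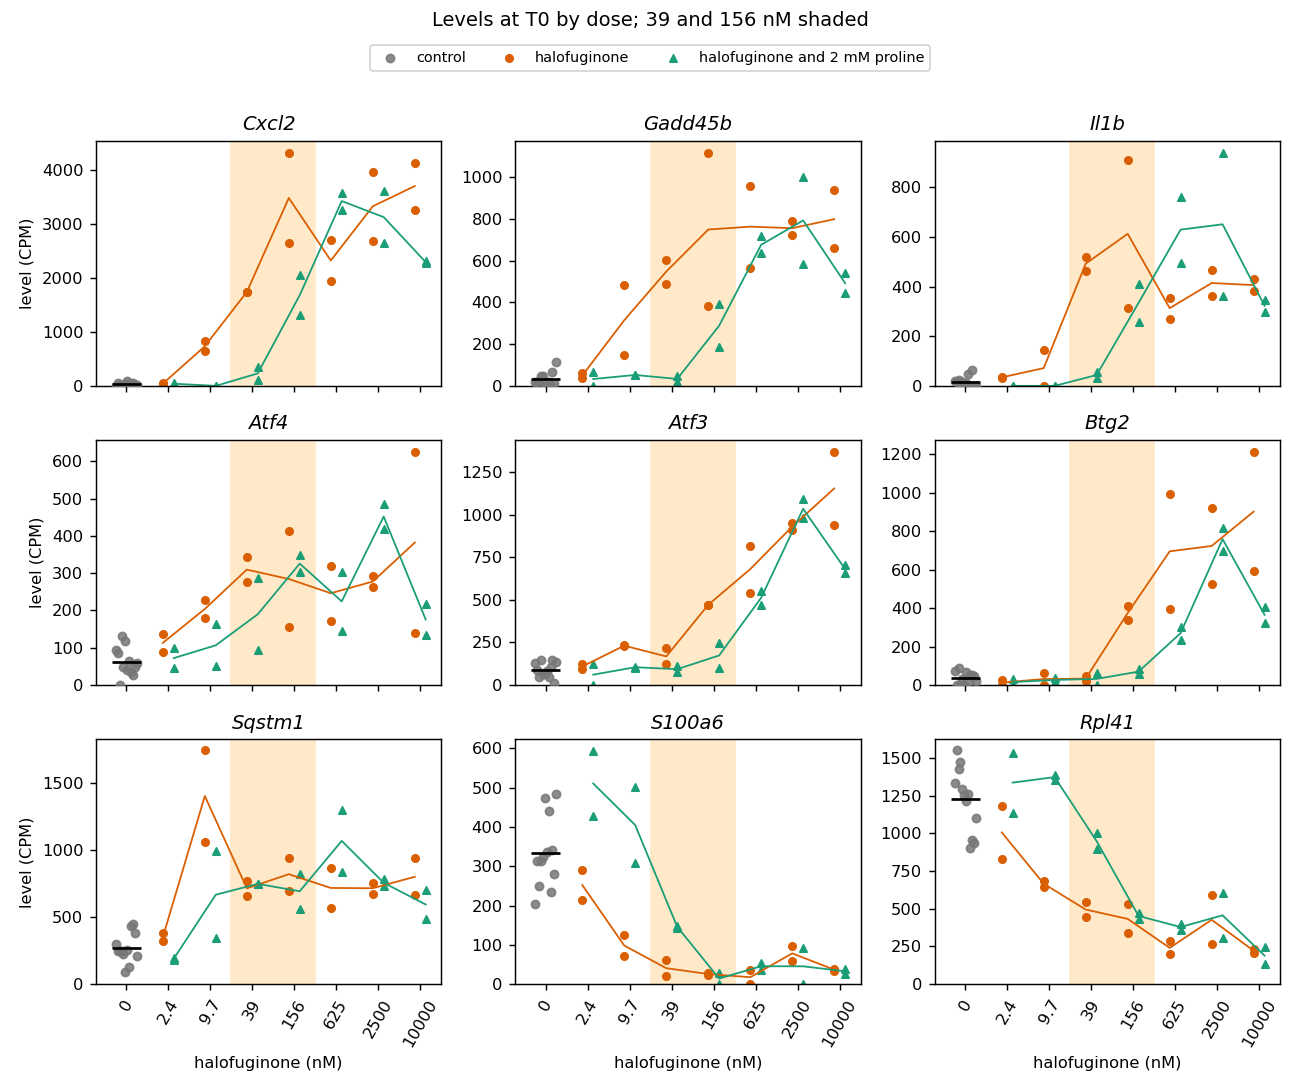
Levels of 9 genes in CPM at T0 by halofuginone dose in nM, with points for libraries (12 controls at 0, 2 for each dose and arm), lines through the means of each dose, and 39 and 156 nM shaded. Without proline Cxcl2 and Gadd45b are raised at 39 nM. With proline the means of both are lower at 39 and 156 nM, but the Gadd45b libraries of the arms overlap at 156 nM. Atf3 is above its 156 nM levels in every library at 625 nM or more without proline.

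Added proline went with lower levels of several cytokine and immediate early genes at the middle doses. With 2 mM proline at the same doses (4 libraries), 3 genes (0.265%) were higher and 21 (1.86%) lower than without it, and leaving out 1 library gave 0 to 4 and 6 to 25, the 6 without the first 156 nM library. Cxcl2 with proline was at 112 and 350.3 CPM at 39 nM and 2055 and 1309 CPM at 156 nM (log2 fold change -1.96, SE 0.27, adjusted p = 1.26e-07). Gadd45b was at 18.6 and 47.8 and then 390.5 and 187 CPM (log2 fold change -2.64, SE 0.46, adjusted p = 6.45e-05). Il1b was at 55.8 and 31.8 and then 411 and 259 CPM (log2 fold change -2.15, SE 0.47, adjusted p = 0.00248). At 39 nM with proline Gadd45b and Il1b lay within the control range, and Cxcl2 lay above it in both libraries. At 156 nM the Gadd45b and Il1b levels with proline overlapped with those without it. Nfkbia (-1.57, SE 0.26), H3f3b (-1.30, SE 0.22), Ifrd1 (-2.07, SE 0.38), Id3 (-1.38, SE 0.29), Jun (-1.52, SE 0.34), Dusp1 (-1.99, SE 0.46) and Junb (-1.15, SE 0.27) were lower with proline too. The 3 higher genes were Ctsl (856 and 733 CPM at 39 nM and 473 and 877 at 156 nM; log2 fold change 1.03, SE 0.28, adjusted p = 0.0246), Ptp4a2 (1.32, SE 0.32) and the calcium pump gene Atp2b1 (1.05, SE 0.30).

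The calls of this test of proline are given here by gene list. Inflammatory genes were lower with proline in 6 of 18 tested and immediate early genes in 4 of 14. For stress kinase and growth arrest genes it was 3 of 11, against 1.86% lower over all genes tested. Of the members tested in these lists, 4, 2 and 3 reached the filter's level in controls. The others were tested only through treated libraries, so these counts give no support for a direction. For ATF4 targets edgeR called 0 of 9, with 1 at an unadjusted p under 0.05 and a median of -0.21. Ribosomal protein genes were called in 0 of 79, with 14 at an unadjusted p under 0.05 and a median of 0.41. Among all genes tested 0.265% were higher and 1.86% lower with proline, and 148 of 1130 were at an unadjusted p under 0.05. With so few calls among all genes, the counts of 0 do not set these 2 lists apart. Sqstm1 was at 745 and 748 CPM at 39 nM with proline (-0.09, adjusted p = 0.97), and Atf4 at 93.1 and 287 CPM (-0.21, adjusted p = 0.922). For Rpl41 the values with proline were 894 and 1003 CPM at 39 nM and 473 and 431 CPM at 156 nM (0.51, adjusted p = 0.389). S100a6 was at 149 and 143 and then 0 and 28.8 CPM (0.58, adjusted p = 0.867). A p-value that misses the threshold does not show that proline left these genes as they were. No dose was tested alone for proline, and an effect of proline by itself cannot be told apart here.

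The list of small structural and ribosomal RNAs, to which Lars2 was added, was higher with the treatment. The 5 tested of 12 listed (9 in the table) were all higher, against 13.7% higher over all genes tested. Of these, 2 were tested only through treated libraries. The 5 were Rn45s (0.64, SE 0.12), Lars2 (0.79, SE 0.15), Rpph1 (0.79, SE 0.29), Rn4.5s (2.30, SE 0.42) and Rnu6, the U6 spliceosomal RNA gene. Rnu6 was at 525 and 399 CPM at 39 nM and 1206 and 785 CPM at 156 nM, with controls from 0 to 223 CPM with a median of 77.4 (log2 fold change 2.91, SE 0.28, adjusted p = 1.96e-14). Lars2, the mitochondrial leucyl-tRNA synthetase gene, took 3.08 ± 0.25% of counts with halofuginone and 2.29 ± 0.43% in controls (exact permutation p = 0.00769, adjusted p = 0.0154), with ranges that overlap. Such high counts for Lars2 can hold reads of ribosomal RNA that match its sequence, so its level is uncertain. With all genes of this list taken out of the counts before scaling, the number of genes called changed by less than 1.5 times in each direction.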

How the data were processed

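The libraries were 3′-end digital gene expression libraries made with a modified SCRB-Seq and Nextera protocol, per the labels' protocols. The deposited table holds whole-number counts per gene symbol for every library. BWA and the mouse build mm10 stand in the submitters' processing notes; annotation, strand setting and molecular identifiers are not stated there, so overlapping and near-identical genes cannot be separated.

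From these counts, edgeR 4.0.16 (R 4.3.3, limma 3.58.1) fitted all 40 T0 libraries with 1 coefficient for each of 15 groups, TMM scaling, filterByExpr with a minimum count of 10 (1130 of 23481 symbols) and robust quasi-likelihood tests. The threshold was 0.05 on Benjamini-Hochberg adjusted p over the genes tested. TMM factors were 0.786 to 0.922 in the 4 halofuginone libraries and 0.988 to 1.36 in controls. Library measures were compared by exact permutation (scipy 1.17.1). The procedure was also tested on simulated data. Alternatives were DESeq2 1.42.0, median-of-ratios scaling, no filter, a replicate block and the libraries of a comparison alone. Others were removal of the small structural and ribosomal RNAs with Lars2, and leaving out each library. No 2 libraries of a group held identical values. Promoters came from RefSeq, with 94 of 117 named genes matched.

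Libraries, gene lists and named genes were chosen with earlier results of these data known. Named genes were the 10 largest increases and 10 largest decreases among called genes of at least median level with all 4 libraries on one side of the control mean, up to 4 members per list with the smallest adjusted p, and a few fixed genes such as Eprs. Other list members in the text were picked after their values were seen. Fold changes are not given in the report where the libraries pooled for a group hold 3 or fewer counts, or where 1 of the 2 middle doses is at 0. Libraries at the other times were not used here.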

Additional observations from a re-analysis of the deposited data

Results flagged for a closer look

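Of 97 group values examined in the 4 halofuginone libraries, 11 had 1 library far from the other 3. The rule flags about 1 in 20 groups of 4 independent values from 1 normal distribution. The libraries here come from 2 doses and many counts are low, so the 11 cannot be set against that rate. The first 156 nM library stood apart for 5 genes. It was the highest for Dusp1 (824 CPM, others 322 to 359), Cd83 (1735 CPM, others 585 to 740.1), Tnf (471 CPM, others 169 to 182) and Id3 (1706 CPM, others 1009 to 1104), and the lowest for Laptm5 (29.4 CPM, others 123 to 141). Leaving it out cost none of these 5 genes its call.

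The second 156 nM library was the highest for Maf (381 CPM, others 29.4 to 76.7) and the lowest for Atp2b1 (202 CPM, others 322 to 343). It also had the highest share of Rn45s, 62.0% of its counts against 55.4 to 56.4% in the others. The first 39 nM library was the highest for Rpl36a (161 CPM, others 22.4 to 46.0) and Rpl13 (323 CPM, others 202 to 215). The second 39 nM library had the highest share of Lars2, 3.45% of counts against 2.93 to 2.98%.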

How the results depend on the processing

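Of 83 named genes called between 39 and 156 nM and control, 82 kept their direction under every alternative run and 56 were called under every one; Ddit3 was the exception in its fitted sign. With 1 library left out at a time, 66 were called throughout. The labels do not say that replicate numbers pair the samples. The difference of replicate 1 minus replicate 2 was taken gene by gene within each group and correlated between groups. It correlated at -0.014 between control and 39 nM, 0.082 between control and 156 nM and -0.039 between 39 and 156 nM. Only the first 2 controls entered this. Of 105 pairs of T0 groups 4 were over 0.1, the highest at 0.187. Under the replicate block, calls were 70 higher and 65 lower at 39 and 156 nM, 46 and 26 at 39 nM, and 74 and 39 at 156 nM. Replicate numbers above 2 occur only among controls, so the block gives each of those controls its own coefficient. Only the first 2 controls then inform the comparison, so the smaller number of calls cannot be read as an effect of pairing. Without a filter on low counts, lower calls were 22 at 39 nM and 54 at 156 nM, and calls were 4 higher and 4 lower at the high against the middle doses, 46 and 32 at the middle against the low doses, and 1 and 12 with proline against without. DESeq2 and the libraries of that comparison alone both gave 0 genes lower at the high against the middle doses, and the latter gave 45 lower at the middle against the low doses.

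Leaving out each library in turn gave 124 to 159 genes higher and 102 to 186 lower at 39 and 156 nM against control, 55 to 102 and 13 to 86 at 39 nM, and 66 to 123 and 20 to 101 at 156 nM. Between 156 and 39 nM it gave 0 to 1 and 0 lower, between high and middle doses 5 to 12 and 0 to 7, between middle and low doses 53 to 82 and 27 to 70, and with proline against without 0 to 4 and 6 to 25. With 1 library left for a dose, the filter keeps more genes and the lone library is assumed to vary like the other groups. Fold changes of some genes not called turned sign. Hspa8 did so without a filter (-0.0645) and without the small structural and ribosomal RNAs and Lars2 (-0.048). Fth1 did so with the libraries of the comparison alone (0.0238). Under the block Trim30a (0.53), Canx (-0.0109), Hspa8 (-0.41), Fth1 (0.0254) and Tubb5 (0.38) turned sign. The cause was not tested. With each library left out in turn, log2 fold changes ran from -2.34 to 0.70 for Eprs, -0.73 to 0.53 for Aars, -2.45 to 0.19 for Trim30a, -0.79 to 2.43 for Egr1, -0.13 to 0.11 for Hspa8, -0.85 to 0.28 for Hmgb2 and -0.76 to 2.39 for Ddit3. The lowest values of Eprs, Trim30a, Egr1 and Ddit3 come from fits in which 1 dose is a single library with 0 counts, so they depend on the prior count and give no direction. The difference in mean total counts ran from -5949 to 4430 counts, beside overlapping totals. The alternative of dropping libraries under 30000 counts was not run, since no T0 library is below that. Depth limits single genes: Cx3cr1 and Cox6c rest on 4 and 5 counts in the 4 halofuginone libraries.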

Other observations

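Beyond the listed groups, 101 of the genes called higher at 39 and 156 nM against control and 61 of those called lower belong to none of the lists. Symbols of predicted genes and pseudogenes were left out of both numbers. The following genes were picked from the 101 and the 61 after their values were seen. The stress cytokine gene Gdf15 had 34 counts in the 4 halofuginone libraries and 2 in the 12 controls, Odc1, the first enzyme of polyamine synthesis, was at 199 ± 67.9 CPM against a control mean of 12.5 CPM (log2 fold change 3.74, SE 0.58), and Irs2, an adaptor of insulin signalling, at 164 ± 43.3 against 11.9 CPM (3.81, SE 0.64). Csf1, the macrophage growth factor gene, was at 229 ± 82.5 against 20.7 CPM (3.28, SE 0.55) and Sdc4, a heparan sulfate proteoglycan gene, at 795 ± 272 against 170.0 CPM (2.14, SE 0.26). The inhibitory receptor genes Lilrb4 (1.67, SE 0.20) and Gp49a (1.55, SE 0.24) are near-identical neighbours whose reads may be shared.

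Lower genes outside the lists included the protease inhibitor gene Cst3, at 412 ± 89.2 CPM against 1309 CPM in controls (-1.67, SE 0.22), the lysosomal glycoprotein gene Creg1, at 168 ± 72.6 against 629 CPM (-1.93, SE 0.29), and the glutathione peroxidase gene Gpx1, at 252 ± 116 against 594 CPM (-1.27, SE 0.26). The interferon-inducible membrane protein gene Ifitm3 was at 94.2 ± 36.5 against 345 CPM (-1.93, SE 0.41). Serp1, a small protein gene of the endoplasmic reticulum, had 0 counts in the 4 halofuginone libraries and 59 in the 12 controls, and the histone variant gene H2afy 3 and 119. Adjusted p-values from edgeR's quasi-likelihood test were under 0.05 for all genes named here with a fold change.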
